A study of Oryza sativa with 18 samples.

Results

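The response to jasmonate (JA) of the rice line oscoi1ab was followed in crown root tips by comparing 3 oscoi1ab libraries made after JA treatment with 3 oscoi1ab libraries made after mock treatment. These 6 libraries are part of 18, and they were picked by their line and treatment, not by any measured value. The JA plants were oscoi1ab seedlings placed for 6 h in liquid medium with 5 µM JA, and the mock plants were oscoi1ab seedlings kept for 6 h in the same medium with DMSO. The line oscoi2, edited in OsCOI2, and the unedited Kitaake wild type (WT) were treated in the same way, each with 3 JA and 3 mock libraries. All plants were in the Kitaake background and were 6 days old when transferred, and each library came from root tips of about 1 cm pooled from 20 to 24 plants. The oscoi1ab material is a single homozygous edited line, so that the line and its edits cannot be told apart.

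JA acts in plants through its conjugate with isoleucine (JA-Ile). JA-Ile is held between a COI F-box protein and a JAZ repressor, the JAZ protein is then degraded, and transcription factors such as MYC2 are released to act on their targets, which include the JAZ genes and the JA biosynthesis genes themselves. Rice has 3 COI genes, OsCOI1a, OsCOI1b and OsCOI2, and oscoi1ab carries edits in the first pair. In roots and leaves of grasses, JA is known for restraining growth and for inducing defense proteins and phytoalexins.

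The guide targets and one other site are shown because they define the line. Capitals mark the PAM, positions are those of the study's own Kitaake assembly on the forward strand, and the edits are those the study lists at these sites.
OsCOI1a target, chr1:37388017-37388039, 4 nt deleted in oscoi1ab: tgctggaggagcattctacgAGG
OsCOI1b target, chr5:22293993-22294015, 1 nt deleted in oscoi1ab: ccacatgaccgaactcacagTGG
Other site of the OsCOI1b guide, chr1:37387873-37387895, no edit listed: ctacatgactgaactcaaagTGG
The third sequence starts 144 bases before the OsCOI1a target and differs from the OsCOI1b guide by C2T, C10T and C18A, counted from 1 at the 5′ end of the guide. The study listed 64 sites for the OsCOI1a guide, of which 2 carried a mutation, and 41 sites for the OsCOI1b guide, of which 4 did. These counts include each guide's own target and its edit. The remaining mutations are listed as insertions in retrotransposon or transposon loci, and the study reports that they hit no gene coding for a protein.

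Levels are given as CPM, the count of a gene relative to its library's total after TMM scaling, which leaves the scaled totals unequal between libraries, and libraries are listed in the order of their replicate numbers. The deposited counts summed to between 101428723 and 108557517 per oscoi1ab JA library and between 103348311 and 112738875 per oscoi1ab mock library. The 10 most abundant genes held 7.29% to 7.87% of the counts after JA and 4.04% to 4.59% in mock. A count was not equal to 1 read pair, and a gene at 0 in a group could still reach 0.117 CPM in JA or 0.0889 CPM in mock, the level of 3 read pairs. All 15 tested root tip marker genes were at or above 1 CPM in each of the 6 libraries, with summed levels of 3735 to 4439 CPM after JA and 6386 to 7398 CPM in mock, and 3 of them were called down. Their median log2 fold change was -0.15, and RCc3 alone averaged 1509 CPM after JA and 3244 CPM in mock. Most root tip and all shoot marker identifiers have no annotation in the sources used here. The 4 tested shoot marker genes, mainly Rubisco and Rubisco activase genes, summed to 3.92 to 11.8 CPM after JA and 82.8 to 167 CPM in mock, with 2 called down. Beside the counts of both marker lists, 8.15% of all genes tested were called down, by the rule given below. In bulk tissue, fewer cells of a type and less RNA per cell cannot be told apart. The first principal component of the 6 libraries (64.4% of the variance) separated JA from mock, and on the second (11.2%) both libraries numbered 1 lay apart from the others. Those 2 libraries also had the lowest levels of photosynthesis genes in their groups. For several results that rest on them, fits that leave out 1 library at a time are given below.

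JA changed the level of a large share of genes in oscoi1ab. A gene was called when its adjusted p (edgeR quasi-likelihood test, Benjamini-Hochberg over 30907 genes) was below 0.01 and its level changed at least 2-fold. By this rule 2311 genes rose (7.48% of those tested) and 2518 fell (8.15%), 4829 in all (15.6%). The median log2 fold change was 1.95 among the genes that rose and -1.77 among those that fell, against -0.03 over all genes tested. Of the genes that rose, 617 did so at least 8-fold and 321 at least 32-fold, and of those that fell, 472 and 163 passed these sizes. JA and mock libraries did not overlap for 51.7% of all genes tested, nor for 2307 of the genes that rose and 2515 of those that fell. Leaving out JA replicate 1 gave 2106 genes up and 2021 down. With scaling by library size only, the median over all genes moved to -0.39 and the split became 1601 up and 4446 down.

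The 3 receptor genes did not pass the test. OsCOI1a (LOC_Os01g63420) had 24.3, 8.38 and 12.8 CPM after JA, against 24.7, 13.7 and 16.5 CPM in mock (log2 fold change -0.27 ± 0.29 (SE), adjusted p = 0.507). The groups overlapped. In WT, OsCOI1a averaged 82.4 ± 2.41 CPM after JA and 91.3 ± 19.4 CPM in mock (SD, n = 3 each), and the difference in level between lines was not tested. The sign of its JA response in oscoi1ab turned when JA replicate 2 or mock replicate 1 was left out. OsCOI1b (LOC_Os05g37690) had 82.2, 89.1 and 88.4 CPM after JA, against 118, 116 and 103 CPM in mock, and the groups did not overlap, but the change was below 2-fold and missed the threshold (log2 fold change -0.38 ± 0.11 (SE), adjusted p = 0.0119). OsCOI2 (LOC_Os03g15880), the receptor gene not edited in oscoi1ab, had 40.2, 45.2 and 52.1 CPM after JA, against 45.7, 38.5 and 43.8 CPM in mock (log2 fold change 0.11 ± 0.14 (SE), adjusted p = 0.6). These groups overlapped, and its difference took a negative sign with scaling by library size only.

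Genes of JA synthesis rose together. Of 9 tested genes, 8 were called up and 1 down, with a median log2 fold change of 3.70, and their summed level was 1627 ± 6.44 CPM after JA and 239.9 ± 28.2 CPM in mock (SD, n = 3 each). The study chose this list and the other pathway lists below on these samples, so their counts are no independent evidence of direction. The phospholipase gene OsPLD4 (LOC_Os06g40170) had 253, 254 and 259 CPM after JA, against 1.27, 2.74 and 2.86 CPM in mock (log2 fold change 6.80 ± 0.40 (SE), adjusted p = 3.04e-09). The lipoxygenase gene OsLOX9 (LOC_Os08g39840), whose family oxidises linolenic acid at the start of the pathway, had 71.9, 40.7 and 39.3 CPM after JA, against 0.0947, 0.671 and 0.574 CPM in mock (log2 fold change 6.83 ± 0.64 (SE), adjusted p = 4.32e-07). In both genes every JA library stood far above every mock library, and mock replicate 1 was the lowest. Allene oxide synthase makes the next intermediate, and OsAOS1 (LOC_Os03g12500) had 47.9, 35.1 and 50.9 CPM after JA, against 0.0158, 0.189 and 0.181 CPM in mock (log2 fold change 8.44 ± 0.82 (SE), adjusted p = 6.56e-07). Its paralogue OsAOS2 (LOC_Os03g55800) had 253, 258 and 268 CPM after JA, against 14.3, 24.3 and 21.2 CPM in mock (log2 fold change 3.70 ± 0.23 (SE), adjusted p = 4.98e-09). OsAOS2 was well measured in mock root tips, while OsAOS1 was near the floor of 3 read pairs there. OsPLD5 (LOC_Os06g40180) had 178, 228 and 192 CPM after JA, against 7.68, 9.06 and 7.84 CPM in mock (log2 fold change 4.60 ± 0.36 (SE), adjusted p = 5.55e-08). The allene oxide cyclase gene OsAOC rose by 2.35 ± 0.15 on the log2 scale and the OPDA reductase gene OsOPR7 by 2.02 ± 0.12 (SE).

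The 2 JA-Ile synthetase genes moved in opposite directions. OsJAR1 (LOC_Os05g50890) had 153, 116 and 181 CPM after JA, against 35.7, 35.2 and 39.2 CPM in mock (log2 fold change 2.03 ± 0.17 (SE), adjusted p = 1.12e-07). OsJAR2 (LOC_Os01g12160), the 1 member called down, had 0.864, 2.43 and 1.83 CPM after JA, against 24.96, 36.02 and 26.4 CPM in mock (log2 fold change -4.09 ± 0.45 (SE), adjusted p = 2.49e-06). JA and mock libraries overlapped for neither gene. All 5 tested genes of JA-Ile catabolism rose, with a median log2 fold change of 6.24, the highest median of the lists examined. These genes encode CYP94 oxidases and an amidohydrolase that remove the active hormone. OsCYP94B5 (LOC_Os12g25660) had 13.4, 11.2 and 17.5 CPM after JA, against 0, 0.224 and 0.291 CPM in mock (log2 fold change 6.35 ± 0.84 (SE), adjusted p = 1.80e-05). OsCYP94B4 (LOC_Os11g29290) had 374, 381 and 333 CPM after JA, against 2.29, 6.02 and 5.74 CPM in mock (log2 fold change 6.28 ± 0.34 (SE), adjusted p = 1.01e-09). OsCYP94C2b (LOC_Os12g05440) had 81, 70.9 and 56.6 CPM after JA, against 1.097, 0.7998 and 0.8498 CPM in mock (log2 fold change 6.24 ± 0.40 (SE), adjusted p = 8.01e-09). The amidohydrolase gene OsAH8 changed least, with 201, 158 and 170.5 CPM after JA, against 79.7, 77.5 and 73.3 CPM in mock, and still had no overlap (log2 fold change 1.2013 ± 0.11 (SE), adjusted p = 2.38e-07).

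Of the 15 JAZ genes, 14 had enough counts to be tested, 12 rose, none fell and 2 were not called, with a median log2 fold change of 4.63. OsJAZ14 was not tested. JAZ proteins repress MYC-type factors and are the COI substrates. Their summed level was 4772 ± 411 CPM after JA and 330.4 ± 71.6 CPM in mock (SD, n = 3 each), 14.4 times as high. OsJAZ7 (LOC_Os07g42370) and OsJAZ1 (LOC_Os04g55920) were the most abundant members after JA. OsJAZ7 had 1417, 1296 and 1808 CPM after JA, against 85.9, 142 and 171 CPM in mock (log2 fold change 3.50 ± 0.23 (SE), adjusted p = 8.62e-09). OsJAZ1 had 1156, 1274 and 1392 CPM after JA, against 101, 117 and 116 CPM in mock (log2 fold change 3.52 ± 0.11 (SE), adjusted p = 3.67e-12). These were also the most abundant members in mock, and among called members only OsJAZ3 had a smaller fold change.

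JAZ genes that were scarce in mock rose by larger factors. OsJAZ5 (LOC_Os04g32480) had 31.01, 22.96 and 28.8 CPM after JA, against 0, 0 and 0.197 CPM in mock (log2 fold change 8.66 ± 0.95 (SE), adjusted p = 2.49e-06). OsJAZ8 (LOC_Os09g26780) had 375, 351 and 393 CPM after JA, against 1.86, 3.86 and 3.59 CPM in mock (log2 fold change 6.91 ± 0.34 (SE), adjusted p = 3.80e-10). OsJAZ11 (LOC_Os03g08320) had 509, 435 and 494 CPM after JA, against 0.899, 4.498 and 6.97 CPM in mock (log2 fold change 6.86 ± 0.52 (SE), adjusted p = 4.07e-08). Every JA library of these 3 genes lay above every mock library, and mock replicate 1 was the lowest mock library for OsJAZ8 and OsJAZ11. OsJAZ4 (LOC_Os09g23660) was not called and its groups overlapped, with 34.6, 11.2 and 14.2 CPM after JA, against 16.3, 23.6 and 3.75 CPM in mock (log2 fold change 0.46 ± 0.57 (SE), adjusted p = 0.58). Without JA replicate 1 its log2 fold change was -0.19. In WT the same gene averaged 143.5 ± 22.5 CPM after JA and 25.6 ± 6.09 CPM in mock (SD, n = 3 each) and was called up at a log2 fold change of 2.49, but the difference between the lines did not pass the test (unadjusted p = 0.0234, adjusted p = 1.0, edgeR). OsJAZ15 was low throughout, with 0.259, 0.626 and 0.284 CPM after JA, against 1.34, 0.912 and 0.999 CPM in mock.

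**Figure D1:**
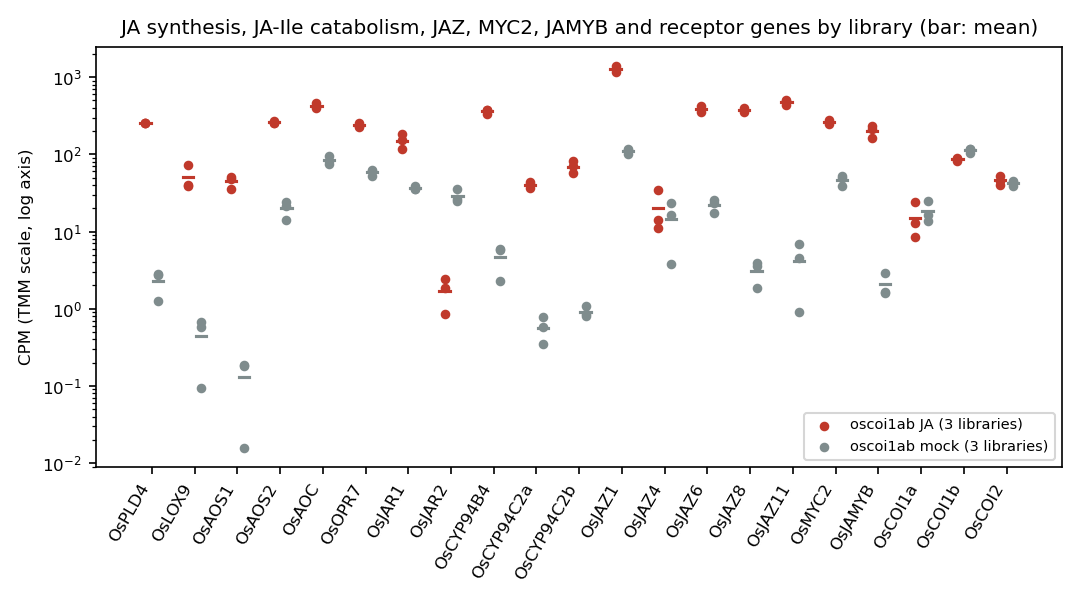
Levels of JA synthesis, JA-Ile catabolism, JAZ, transcription factor and receptor genes in the 6 oscoi1ab libraries, in CPM on a log axis, with JA libraries in red at the left of mock libraries in grey for each gene and bars at the means. JA points lie above mock points for most genes, below them for OsJAR2 and OsCOI1b, and among them for OsJAZ4, OsCOI1a and OsCOI2.

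Transcription factor genes moved in both directions. OsMYC2 (LOC_Os10g42430), the bHLH factor that JAZ proteins hold back, had 246, 261 and 275 CPM after JA, against 38.97, 52.3 and 48.8 CPM in mock (log2 fold change 2.48 ± 0.14 (SE), adjusted p = 1.41e-09). OsJAMYB (LOC_Os11g45740), a JA-inducible MYB gene, had 231, 165 and 214 CPM after JA, against 1.61, 2.94 and 1.64 CPM in mock (log2 fold change 6.62 ± 0.48 (SE), adjusted p = 2.90e-08). OsbHLH148 (LOC_Os03g53020) had 95.2, 96.8 and 85.7 CPM after JA, against 6.66, 10.98 and 17.7 CPM in mock (log2 fold change 2.97 ± 0.30 (SE), adjusted p = 1.21e-06). JA libraries stood above mock libraries for all 3 genes. Of 44 transcription factor genes that the study singled out on these samples, 22 rose, 17 fell and 5 were not called. OsWRKY28 and OsMYB30 rose by 3.90 ± 0.56 and 3.94 ± 0.66 on the log2 scale (SE). The bHLH genes OsbHLH133 and OsbHLH120 had log2 fold changes of -6.87 ± 1.02 and -5.32 ± 0.78 (SE), and OsbHLH133 had 0, 0 and 0.142 CPM after JA, against 8.6, 4.24 and 3.895 CPM in mock. The count that fell depended on single libraries: 8 fell without JA replicate 1 and 9 without JA replicate 3. With scaling by library size only, 14 of the 44 rose.

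Defense genes mostly rose. Of 23 tested, 18 were called up, 2 down and 3 not called, with a median log2 fold change of 2.15. OsWRKY71 (LOC_Os02g08440), encoding a WRKY factor, had 221, 269 and 211 CPM after JA, against 11.9, 18.5 and 27.3 CPM in mock (log2 fold change 3.60 ± 0.30 (SE), adjusted p = 1.40e-07). OsNPR1 (LOC_Os01g09800), encoding the salicylate co-regulator, had 334, 324 and 334 CPM after JA, against 72.7, 76.6 and 80.8 CPM in mock (log2 fold change 2.11 ± 0.11 (SE), adjusted p = 5.61e-10). OsPR5 (LOC_Os12g43380), a thaumatin-like pathogenesis-related gene, had 368, 234 and 226 CPM after JA, against 9.88, 5.68 and 6.98 CPM in mock (log2 fold change 5.20 ± 0.42 (SE), adjusted p = 8.95e-08). No library of these 3 genes crossed to the other group. OsRBBI2 (LOC_Os01g03390), a Bowman-Birk protease inhibitor gene, had 826, 884 and 799.7 CPM after JA, against 8.52, 15.3 and 15.96 CPM in mock (log2 fold change 5.98 ± 0.23 (SE), adjusted p = 2.59e-11). The glucanase gene OsGlu1 had 411, 153 and 173 CPM after JA, against 0.205, 7.103 and 4.35 CPM in mock (log2 fold change 5.98 ± 1.04 (SE), adjusted p = 2.49e-04), with JA replicate 1 above the other JA libraries and mock replicate 1 below the other mock libraries. RSOsPR10 and OsPR10b rose by 2.88 ± 0.69 and 3.16 ± 0.74 on the log2 scale (SE), but the call of RSOsPR10 was lost without JA replicate 1 or any 1 mock library (adjusted p from 0.0121 to 0.0178, edgeR) and that of OsPR10b without mock replicate 1 or 2 (0.0145 and 0.0157). The 2 genes that fell were OsHSR203J, with 27.4, 43.6 and 28.2 CPM after JA, against 73.4, 137 and 164 CPM in mock, and OsRCLEA8, with 5.13, 4.9 and 2.96 CPM after JA, against 21.04, 29.9 and 12.98 CPM in mock. Log2 fold changes of these were -1.92 ± 0.30 and -2.30 ± 0.41 (SE).

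Aromatic and phenylpropanoid pathways rose without a member against them. All 8 tested genes of the shikimate and phenylalanine route rose, with a median log2 fold change of 1.55 and a summed level of 1930 ± 128 CPM after JA and 606 ± 133 CPM in mock (SD, n = 3 each). OsDAHPS1 (LOC_Os07g42960), the entry step of the shikimate pathway, had 993, 908 and 898 CPM after JA, against 191, 314 and 373 CPM in mock (log2 fold change 1.67 ± 0.20 (SE), adjusted p = 6.26e-06). OsADT (LOC_Os04g33390), the arogenate dehydratase gene that ends the route to phenylalanine, had 216, 232 and 213 CPM after JA, against 17.8, 33.1 and 38.8 CPM in mock (log2 fold change 2.88 ± 0.27 (SE), adjusted p = 3.94e-07). OsDHQS (LOC_Os09g36800) had 144, 125 and 123 CPM after JA, against 33.1, 36.3 and 40.96 CPM in mock (log2 fold change 1.83 ± 0.12 (SE), adjusted p = 6.13e-09), an intermediate step. Mock replicate 1 was the lowest mock library in all 3. With scaling by library size only, 5 of the 8 were called, and the calls of OsCM and OsDHQDT/SDH, both close to 2-fold, were lost without mock replicate 1 (0.93) and without JA replicate 1 (0.93) on the log2 scale.

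All 16 tested phenylpropanoid and lignin genes rose, with a median log2 fold change of 2.57. OsPAL7 (LOC_Os05g35290), a phenylalanine ammonia-lyase gene, had 712, 696 and 642 CPM after JA, against 12.5, 41.3 and 52.01 CPM in mock (log2 fold change 4.28 ± 0.45 (SE), adjusted p = 1.56e-06). Os4CL3 (LOC_Os02g08100), which makes the CoA esters used downstream, had 718, 669 and 600.4 CPM after JA, against 142, 196 and 203 CPM in mock (log2 fold change 1.88 ± 0.15 (SE), adjusted p = 5.95e-08). OsCAld5H (LOC_Os10g36848), a hydroxylase gene of syringyl lignin, had 119, 111 and 115 CPM after JA, against 5.68, 9.85 and 8.65 CPM in mock (log2 fold change 3.83 ± 0.39 (SE), adjusted p = 1.09e-06). OsCAD8A (LOC_Os09g23530), a cinnamyl alcohol dehydrogenase gene, had 693, 598 and 477 CPM after JA, against 38.4, 82.9 and 71.1 CPM in mock (log2 fold change 3.20 ± 0.27 (SE), adjusted p = 1.62e-07). In these genes the JA libraries stood well clear of the mock libraries. The laccase gene OsLAC10 (LOC_Os02g51440) had 22.6, 9.31 and 10.4 CPM after JA, against 0, 0 and 0 CPM in mock, at least 159-fold higher after JA when mock is set at the floor of 3 read pairs per library. The methyltransferase gene ROMT16 lost its call without JA replicate 2 (log2 fold change 0.92) or mock replicate 1 (0.86), and ROMT17 without any single library but JA replicate 1 (adjusted p from 0.0199 to 0.0384, edgeR).

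Of 10 flavonoid genes, 7 rose, 1 fell and 2 were not called, with a median log2 fold change of 2.12. The anthocyanidin synthase family gene OsLDOX3 (LOC_Os03g18030) had 476, 445 and 413 CPM after JA, against 0.0631, 1.22 and 0.905 CPM in mock (log2 fold change 9.26 ± 0.74 (SE), adjusted p = 8.18e-08). The chalcone synthase family gene OsCHS15 (LOC_Os07g34260) had 87.4, 50.7 and 64.98 CPM after JA, against 0.379, 0.473 and 0.755 CPM in mock (log2 fold change 6.98 ± 1.16 (SE), adjusted p = 1.70e-04). OsCHS2 (LOC_Os04g01354) had 7.89, 5.26 and 5.11 CPM after JA, against 0.324, 0.103 and 0.291 CPM in mock (log2 fold change 4.66 ± 0.39 (SE), adjusted p = 1.41e-07). The mock libraries of all 3 were below 2 CPM. OsANR3, the 1 member that fell, had 2.13, 1.95 and 2.44 CPM after JA, against 6.24, 6.62 and 5.98 CPM in mock (log2 fold change -1.53 ± 0.27 (SE), adjusted p = 2.47e-04).

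Genes that supply and make diterpenoids rose with more spread between libraries. The plastid MEP pathway gives the isoprenoid precursors, and all 5 tested genes rose, with a median log2 fold change of 3.18. OsDXS3 (LOC_Os07g09190), the first step, had 207, 135 and 189 CPM after JA, against 0.884, 4.18 and 5.74 CPM in mock (log2 fold change 5.62 ± 1.01 (SE), adjusted p = 3.41e-04). OsDXR (LOC_Os01g01710), the second step, had 415, 238 and 326 CPM after JA, against 29.3, 31.6 and 39.8 CPM in mock (log2 fold change 3.28 ± 0.28 (SE), adjusted p = 1.40e-07). OsGGPS1 (LOC_Os07g39270), which joins the precursors into geranylgeranyl diphosphate, had 313, 199 and 248 CPM after JA, against 22.2, 28.7 and 33.1 CPM in mock (log2 fold change 3.18 ± 0.30 (SE), adjusted p = 4.30e-07). JA replicate 1 was the highest and JA replicate 2 the lowest JA library for all 3. Of the 3 tested regulators, OsDPF (LOC_Os01g09990), a bHLH factor of diterpenoid synthesis, had 82.4, 76.96 and 76.8 CPM after JA, against 0.331, 1.703 and 2.41 CPM in mock (log2 fold change 5.73 ± 1.01 (SE), adjusted p = 2.82e-04), and OsWRKY10 had 271, 345 and 295 CPM after JA, against 4.702, 6.99 and 6.88 CPM in mock (log2 fold change 5.62 ± 0.26 (SE), adjusted p = 1.97e-10). OsTGAP1 was not called (0.59 ± 0.13 on the log2 scale, SE).

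Of 19 tested diterpenoid phytoalexin genes, 11 rose, none fell and 8 were not called, with a median log2 fold change of 4.81. These genes encode the cyclases and CYP oxidases of momilactones, phytocassanes and oryzalexins. OsCPS2 (LOC_Os02g36210), a diterpene cyclase gene of the phytocassane route, had 30.4, 7.35 and 20.5 CPM after JA, against 0.158, 0 and 0 CPM in mock (log2 fold change 8.47 ± 1.25 (SE), adjusted p = 9.42e-05). OsKSL4 (LOC_Os04g10060), a diterpene cyclase gene of the momilactone route, had 48.8, 10.3 and 11.98 CPM after JA, against 0, 0 and 0.0315 CPM in mock (log2 fold change 10.95 ± 1.29 (SE), adjusted p = 5.38e-06). OsCYP76M7 (LOC_Os02g36110), an oxidase gene of the phytocassane route, had 34.7, 32.03 and 44 CPM after JA, against 0.821, 0.473 and 1.75 CPM in mock (log2 fold change 5.18 ± 1.06 (SE), adjusted p = 0.001). JA replicate 1 stood above the other JA libraries for OsCPS2 and OsKSL4 but not for OsCYP76M7. OsCYP76M6 had 19.9, 3.399 and 13.9 CPM after JA, against 0, 0 and 0 CPM in mock, at least 139.7-fold higher, and OsKSL10 had 5.399, 2.97 and 2.63 CPM after JA, against 0, 0 and 0 CPM in mock, at least 41.2-fold higher. OsCPS4 (LOC_Os04g09900), the most abundant member, was not called despite no overlap, with 398, 170.3 and 272 CPM after JA, against 3.46, 11.5 and 15.1 CPM in mock (log2 fold change 4.81 ± 1.43 (SE), adjusted p = 0.0138). The list summed to 913, 463 and 702 CPM after JA and 17.5, 53.5 and 80.9 CPM in mock, so that both libraries numbered 1 were extreme. Without JA replicate 1, or without mock replicate 1, 8 members rose, and at an adjusted p below 0.05 17 did. OsCYP76M5, OsCYP76M8 and OsCYP99A2 lost their calls without JA replicate 1 (adjusted p = 0.0328, 0.011 and 0.013, edgeR) and also without any 1 mock library, and OsCYP76M5 without JA replicate 3.

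**Figure D2:**
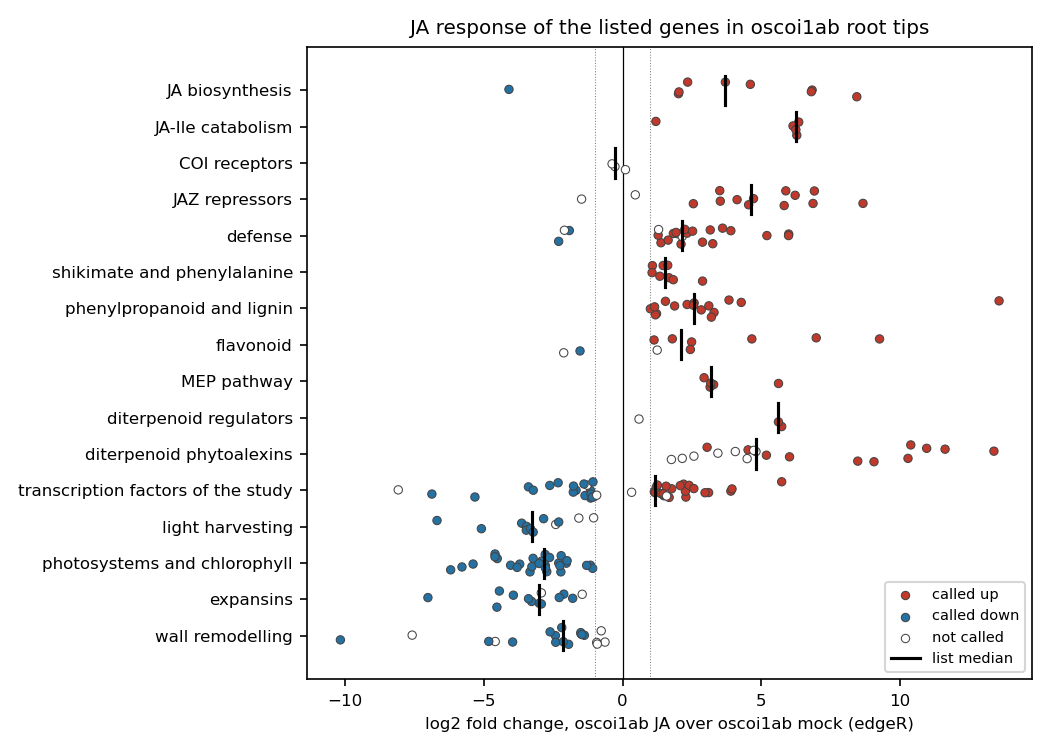
Log2 fold change of each listed gene in oscoi1ab, JA over mock, with filled points called up (red) or down (blue), open points not called, black bars at list medians and dotted lines at a 2-fold change. Synthesis, catabolism, JAZ, phenylpropanoid and diterpenoid genes lie mainly to the right, and photosynthesis, expansin and wall genes to the left.

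Photosynthesis genes, which root tips express at low levels, fell together. All 29 tested photosystem and chlorophyll genes fell, with a median log2 fold change of -2.82, and their summed level was 60.7, 192 and 169 CPM after JA, against 703, 1249 and 949.6 CPM in mock. OsPsbO (LOC_Os01g31690), the oxygen-evolving complex subunit, had 2.61, 14.04 and 13.3 CPM after JA, against 118, 208 and 164 CPM in mock (log2 fold change -4.03 ± 0.64 (SE), adjusted p = 1.07e-04). OsPsbR3 (LOC_Os08g10020), another photosystem II subunit gene, had 0.551, 1.09 and 1.32 CPM after JA, against 28.5, 54.1 and 41.2 CPM in mock (log2 fold change -5.38 ± 0.56 (SE), adjusted p = 1.40e-06). OsPsbP-3 (LOC_Os03g17174) had 0.0432, 0.136 and 0.0873 CPM after JA, against 5.85, 3.95 and 5.08 CPM in mock (log2 fold change -5.78 ± 0.76 (SE), adjusted p = 1.73e-05). OsPsaN-2 (LOC_Os12g08770), a photosystem I subunit gene, had 0, 0.156 and 0.207 CPM after JA, against 2.903, 13.3 and 10.6 CPM in mock (log2 fold change -6.19 ± 1.18 (SE), adjusted p = 5.59e-04). JA replicate 1 was the lowest JA library for all 4. Without it 25 of the 29 fell, and without mock replicate 1 27 did. OsCRD1 (LOC_Os01g17170), an enzyme of chlorophyll synthesis, had 1.57, 4.56 and 4.31 CPM after JA, against 16.02, 27.9 and 29.6 CPM in mock (log2 fold change -2.82 ± 0.47 (SE), adjusted p = 1.69e-04).

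Of 12 light-harvesting genes, which encode chlorophyll-binding antenna proteins, 9 fell and 3 were not called, with a median log2 fold change of -3.27. OsLhcb1a (LOC_Os01g41710) had 0.518, 2.23 and 1.67 CPM after JA, against 77.7, 234 and 142 CPM in mock (log2 fold change -6.68 ± 0.91 (SE), adjusted p = 2.38e-05). OsLhcb5 (LOC_Os11g13890) had 10.2, 27.2 and 25.4 CPM after JA, against 63.8, 105 and 139.7 CPM in mock (log2 fold change -2.30 ± 0.49 (SE), adjusted p = 0.00147). OsLhca3 (LOC_Os02g10390) had 0.237, 1.19 and 1.15 CPM after JA, against 11.2, 41.99 and 34.1 CPM in mock (log2 fold change -5.08 ± 0.99 (SE), adjusted p = 6.71e-04). The groups did not overlap for these genes, and JA replicate 1 was again the lowest JA library. Without it 7 members fell, the calls of OsLhcb3 and OsLhca4 being lost (adjusted p = 0.02 and 0.0121, edgeR), as they were without JA replicate 3 or mock replicate 2. OsGLK1, which encodes a factor that drives chloroplast genes, had 6.65, 21.4 and 20.3 CPM after JA, against 38.1, 66.7 and 59.2 CPM in mock (log2 fold change -1.76 ± 0.46 (SE), adjusted p = 0.00571), and lost its call without JA replicate 1 (-1.39, adjusted p = 0.0251) or without JA replicate 3, mock replicate 2 or mock replicate 3. The shoot markers moved in the same direction as these lists (14.7 times as high in mock). Most of them are Rubisco or Rubisco activase genes, thus photosynthesis genes themselves, and they are no separate marker of shoot tissue here. Their part in the result was not tested.

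**Figure D3:**
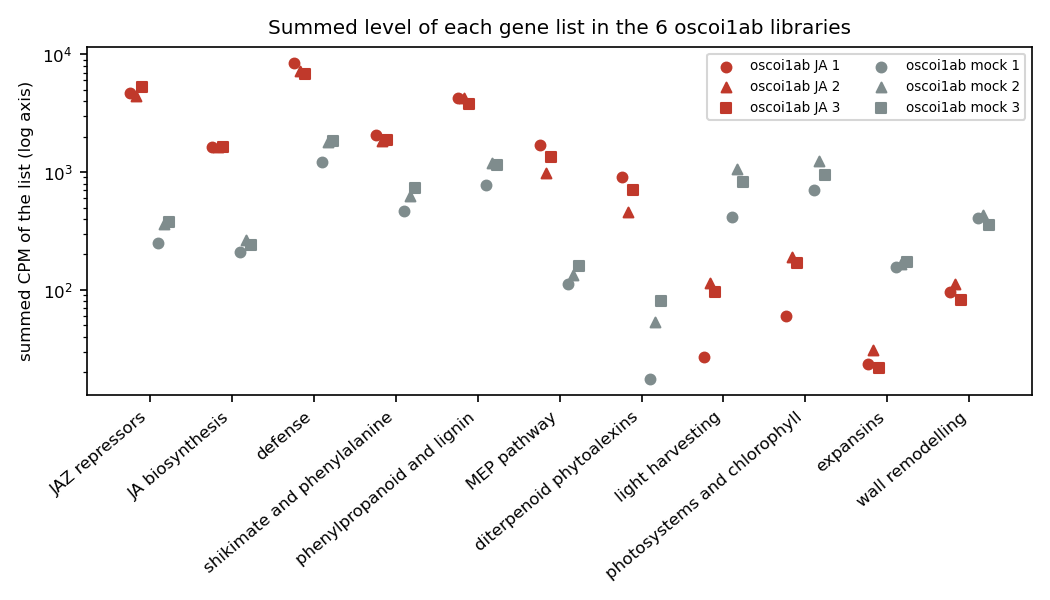
Summed CPM of each gene list in the 6 oscoi1ab libraries on a log axis, JA in red left of mock in grey, with circles, triangles and squares for replicates 1, 2 and 3. The JA and mock points do not overlap in any list shown, and the circles are the lowest points of their group for both photosynthesis lists.

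The listed genes that loosen and remodel cell walls mostly fell. Of 13 expansin genes, whose proteins loosen growing walls, 11 fell and 2 were not called, with a median log2 fold change of -2.997 and a summed level of 25.4 ± 4.89 CPM after JA and 165 ± 7.53 CPM in mock (SD, n = 3 each). OsEXPB7 (LOC_Os03g01270), the most abundant in mock, had 6.39, 6.81 and 8.42 CPM after JA, against 61.5, 65.8 and 98.8 CPM in mock (log2 fold change -3.39 ± 0.26 (SE), adjusted p = 5.27e-08). OsEXP4 (LOC_Os05g39990) had 8.97, 11.2 and 6.17 CPM after JA, against 33.5, 31.9 and 26 CPM in mock (log2 fold change -1.79 ± 0.37 (SE), adjusted p = 9.96e-04). OsEXP15 (LOC_Os03g06020) had 0.2699, 0.459 and 0.534 CPM after JA, against 8.67, 5.95 and 4.698 CPM in mock (log2 fold change -3.93 ± 0.75 (SE), adjusted p = 5.34e-04). No JA library of these 3 genes reached a mock library. OsEXP28 (LOC_Os10g30340) had 0, 0.115 and 0.316 CPM after JA, against 1.996, 4.81 and 3.17 CPM in mock (log2 fold change -4.52 ± 0.89 (SE), adjusted p = 6.99e-04). OsEXP20 had the largest fitted log2 fold change of the list (-7.01 ± 1.59, SE) from low levels, and its call was lost without JA replicate 2 or 3 (adjusted p = 0.013 and 0.0141, edgeR). Outside the list, LOC_Os09g29690 and LOC_Os09g29710, both annotated as beta-expansins, rose from 0 in every mock library to means of 1.07 and 15.4 CPM after JA. LOC_Os09g29710 is also annotated as similar to a blight-associated protein p12 precursor. It had 30.1, 9.32 and 6.7 CPM after JA, and it was not called in WT.

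Of 19 wall remodelling genes, 13 fell and 6 were not called, with a median log2 fold change of -2.13. OsXTH2 (LOC_Os11g33270), a xyloglucan endotransglucosylase gene, had 8.73, 7.21 and 3.45 CPM after JA, against 87.6, 119.7 and 93.9 CPM in mock (log2 fold change -3.96 ± 0.52 (SE), adjusted p = 1.75e-05). The xyloglucan-related gene XG_FT3 (LOC_Os04g37650) had 0.1296, 0.2398 and 0.0436 CPM after JA, against 2.57, 6.84 and 2.38 CPM in mock (log2 fold change -4.82 ± 0.92 (SE), adjusted p = 5.62e-04). OsXTH12 (LOC_Os06g48180) had 6.19, 15.01 and 8.27 CPM after JA, against 72.7, 63.6 and 43.5 CPM in mock (log2 fold change -2.61 ± 0.29 (SE), adjusted p = 3.34e-06). OsXTH16 was listed at 0 in every JA library and had 1.199, 0.989 and 1.82 CPM in mock, at least 11.4-fold lower after JA against the same floor. The pectin methylesterase gene OsPME5 had 3.89, 4.57 and 3.22 CPM after JA, against 8.805, 10.8 and 10.6 CPM in mock (log2 fold change -1.37 ± 0.26 (SE), adjusted p = 4.56e-04). Without JA replicate 3, 8 of the 19 fell. Of 8 cell cycle genes 1 fell and 7 were not called, against 8.15% of all genes tested that fell, and 4 fell with scaling by library size only.

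Other lists were drawn from general knowledge of rice, and most of their identifiers have no annotation in the sources used here, so they are given mainly by counts. Over all genes tested 7.48% rose and 8.15% fell, and a list with few calls is not read as a result about its members. Of 8 type-A cytokinin response regulators 6 fell, of 13 aquaporins 7 fell, of 10 auxin transport genes 2 fell and of 9 gibberellin genes 1 rose and 1 fell. Of 9 ethylene genes 1 rose and 3 fell, of 5 phosphate genes 1 rose, and none of 5 reference genes was called. Of 13 iron acquisition genes 2 rose and 6 fell, and their summed level was 283 ± 21 CPM after JA and 952 ± 298 CPM in mock (SD, n = 3 each). Against that fall, OsIRT1 (LOC_Os03g46470), the iron transporter gene and 1 of the 2 that rose, had 53.2, 71.8 and 70.4 CPM after JA, against 14.2, 6.94 and 4.79 CPM in mock (log2 fold change 2.91 ± 0.38 (SE), adjusted p = 1.68e-05). Of 12 nitrogen genes 1 rose and 4 fell, with summed levels of 927 ± 115 CPM after JA and 1301 ± 179 CPM in mock (SD, n = 3 each). The 1 that rose, OsNRT2.1 (LOC_Os02g02170), a nitrate transporter gene, had 2.07, 3.68 and 2.15 CPM after JA, against 0.2604, 0.327 and 0.173 CPM in mock (log2 fold change 3.37 ± 0.61 (SE), adjusted p = 3.30e-04). The JA libraries of OsIRT1 and OsNRT2.1 lay above their mock libraries. Of 11 abscisic acid genes 1 rose and 1 fell.

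The 10 genes ranked highest by fitted log2 fold change, among called genes of at least 1 CPM on average without overlap, were at 0 in every mock library. Their folds are lower bounds, and this ranking depends on the prior count of the fit. LOC_Os12g12720, annotated as a jasmonate-induced protein, had 55.05, 63.1 and 49.3 CPM after JA, against 0, 0 and 0 CPM in mock, at least 628-fold higher. LOC_Os11g10800, annotated as a dirigent protein, a family that guides lignan coupling, had 41.1, 30.8 and 35.2 CPM after JA, against 0, 0 and 0 CPM in mock, at least 402-fold higher. LOC_Os04g29090, with FAD-binding and arabino-lactone oxidase domains, had 22.8, 28.01 and 31.1 CPM after JA, against 0, 0 and 0 CPM in mock, at least 307-fold higher. The other 7 were Os12g0228650, a hypothetical protein, LOC_Os05g17810, an SHR5-like receptor kinase, the polyamine oxidase gene LOC_Os09g20260, the ribonuclease gene OsRNS5, the terpene synthase gene OsTPS5, LOC_Os12g30800, an ent-kaurene synthase gene, and LOC_Os09g29710, annotated as a beta-expansin. Their bounds lay between 173 and 271-fold. In all, 109 genes rose from 0 in every mock library, 68 of them to at least 1 CPM, and 93 of the 109 were also called up in WT and 23 in oscoi2. Conversely, 84 genes fell to 0 in every JA library. LOC_Os11g41034 had 0, 0 and 0 CPM after JA, against 4.68, 6.48 and 10.9 CPM in mock, at least 62.8-fold lower. LOC_Os03g22590, which like it has no annotation in the sources used here, had 0.291, 0.574 and 0 CPM after JA, against 113, 91.4 and 90.6 CPM in mock (log2 fold change -8.40 ± 0.74 (SE), adjusted p = 2.34e-07).

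By level, protease inhibitors, PR1-like proteins, a lipoxygenase and peroxidases gained most. BBTI4 (LOC_Os01g03340), a Bowman-Birk trypsin inhibitor, had 10930, 11920 and 11490 CPM after JA, against 558, 593 and 592 CPM in mock (log2 fold change 4.3002 ± 0.15 (SE), adjusted p = 7.13e-12). OsLOX2 (LOC_Os03g52860) had 5283, 6525 and 5273 CPM after JA, against 131, 128 and 105 CPM in mock (log2 fold change 5.55 ± 0.28 (SE), adjusted p = 5.61e-10). The peroxidase gene prx61 (LOC_Os04g59190) had 3118, 3113 and 2868 CPM after JA, against 65.5, 56.8 and 45.95 CPM in mock (log2 fold change 5.76 ± 0.19 (SE), adjusted p = 5.98e-12). Every JA library of these genes lay above every mock library. The 10 genes of largest gain, which also include BBPI, OsHI-XIP, LOC_Os07g03458, OsPR1-71, LOC_Os07g03368, OsPRX59 and OsGns11, held 7.01%, 7.18% and 6.83% of the counts of their library after JA and 0.618%, 0.598% and 0.62% in mock. The 10 genes of largest loss held 0.322%, 0.428% and 0.323% after JA and 1.26%, 1.44% and 1.23% in mock. Among these, the aquaporin gene TIP1-2 (LOC_Os01g74450) had 49.9, 87.6 and 58.3 CPM after JA, against 414, 629 and 443.7 CPM in mock (log2 fold change -2.92 ± 0.24 (SE), adjusted p = 8.77e-08), and the hybrid proline-rich protein gene OsHyPRP18 (LOC_Os10g40510) had 284, 341 and 226 CPM after JA, against 745, 828 and 666 CPM in mock (log2 fold change -1.39 ± 0.26 (SE), adjusted p = 4.11e-04).

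Several of these genes lay side by side. Among tested genes ordered by locus number, 23 runs of at least 4 neighbours were called in the same direction, 14 up and 9 down, with 112 genes in all. On chromosome 7, 12 consecutive SCP-like genes from LOC_Os07g03279 to LOC_Os07g03600, the family of PR1, rose together, and their summed level was 34346, 31480 and 29420 CPM after JA, against 1611, 1782 and 1954 CPM in mock. OsPR1-73 (LOC_Os07g03288) had 175, 138 and 139 CPM after JA, against 0.00789, 0.292 and 0.0236 CPM in mock (log2 fold change 10.48 ± 0.86 (SE), adjusted p = 1.03e-07). PR1b (LOC_Os07g03600), the least changed, had 17.2, 19.1 and 27.7 CPM after JA, against 2.34, 6.29 and 9.36 CPM in mock (log2 fold change 1.83 ± 0.49 (SE), adjusted p = 0.00741). Of these 12 genes, 11 were called up in WT and 9 in oscoi2. On chromosome 1, 8 neighbours from LOC_Os01g03310 to LOC_Os01g03390 rose, 7 of them Bowman-Birk inhibitors and 1 a receptor kinase, with summed levels of 23635, 25946 and 24809 CPM after JA and 929, 945 and 939 CPM in mock. LOC_Os01g03390, the OsRBBI2 gene described above, is the last of them. All 8 were called up in WT and 5 in oscoi2. Copies in such runs can be near-identical, and how the counting shared reads between them is not given in the sources used here, so the values of single copies are uncertain.

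**Figure D4:**
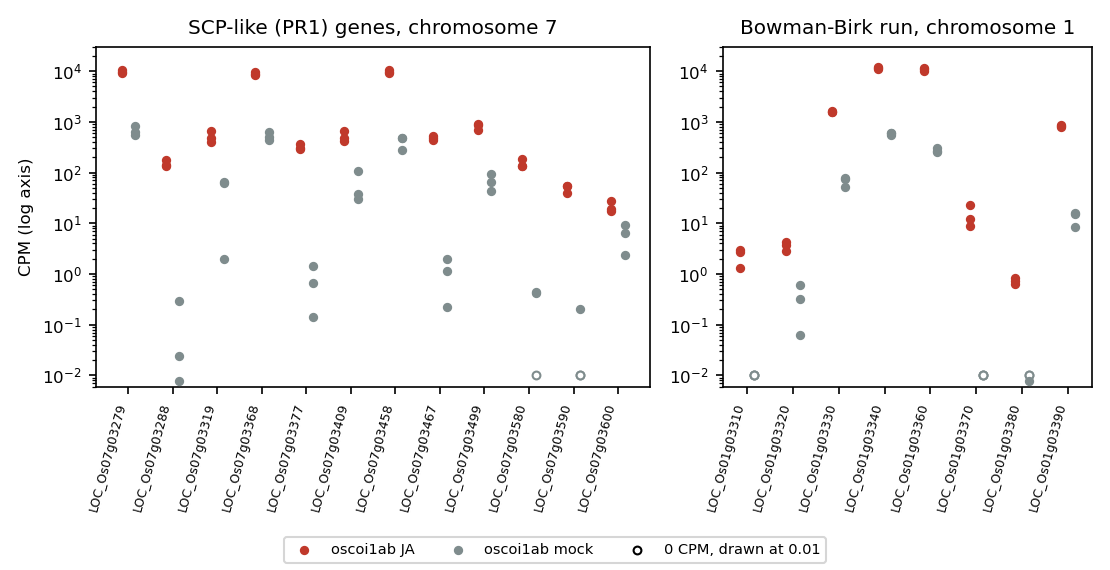
CPM on a log axis of the 12 neighbouring SCP-like genes of chromosome 7 (left) and the 8 neighbours of the Bowman-Birk run of chromosome 1 (right), oscoi1ab JA in red left of oscoi1ab mock in grey, 3 libraries each, with open circles for 0 CPM drawn at 0.01. JA points lie above mock points for every gene shown.

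The response of oscoi1ab was set against that of WT, with which it shares no library. In WT 2313 genes rose (7.48%) and 2029 fell (6.56%). The genes called up in both numbered 2008, which is 86.9% of those of oscoi1ab and 86.8% of those of WT, and 1669 were called down in both, 66.3% and 82.3%. No gene was called in opposite directions. The 849 genes called down in oscoi1ab alone had median log2 fold changes of -1.55 in oscoi1ab and -0.95 in WT. Tested directly, the responses of the 2 lines differed for 0 genes (0.0%), while 903 (2.92%) had an unadjusted p below 0.05, DESeq2 called 21 and edgeR's likelihood ratio test 10. A test that misses the threshold does not show that the lines respond alike. The edgeR test of the difference also cannot call a gene at 0 in the mock libraries of both lines, such as LOC_Os04g29090. The lowest unadjusted p values included those of LOC_Os06g38660, a conserved hypothetical protein, with log2 fold changes of 5.12 in oscoi1ab and 2.05 in WT, and LOC_Os09g23650, the neighbour of OsJAZ4 by locus number, with 1.72 and 0.01.

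Against oscoi2 the response differed for many genes. In oscoi2 924 genes rose (2.99%) and 454 fell (1.47%). The 792 genes called up in both lines were 34.3% of those of oscoi1ab and 85.7% of those of oscoi2, and the 372 called down in both were 14.8% and 81.9%. The genes called up in oscoi1ab had median log2 fold changes of 1.95 in oscoi1ab and 0.95 in oscoi2, and those called down had -1.77 and -0.75. Tested directly, 1042 genes differed (3.37%), 571 (1.85%) with a more positive and 471 (1.52%) with a more negative response in oscoi1ab. Without 1 library at a time this count was 743 to 1070. By list, 10 JAZ genes, 6 JA synthesis genes, 4 of JA-Ile catabolism, 7 phenylpropanoid genes and 7 photosystem genes differed, against 1 of 19 diterpenoid phytoalexin genes and 0 of 12 light-harvesting genes. A gene at 0 in the mock libraries of both lines cannot be called by this test, whatever its JA levels. OsTPS5, for example, averaged 17.3 CPM in oscoi1ab JA and 0.089 CPM in oscoi2 JA, with a difference of 7.58 ± 19016 (SE). How many listed genes this affects was not counted. List medians in oscoi1ab and oscoi2 were 4.63 and 1.78 for JAZ genes, 2.57 and 0.27 for phenylpropanoid genes, and -2.82 and -0.29 for photosystem genes. They were 4.81 and 0.60 for diterpenoid phytoalexins, of which 18 did not pass the test of the difference. For light-harvesting genes they were -3.27 and -0.45, with 9 called down in oscoi1ab and 0 in oscoi2. That 0 of these 12 passed the test of the difference does not show that the lines respond alike.

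OsJAZ9 (LOC_Os03g08310) had 41.8, 31.1 and 35.9 CPM after JA, against 0.197, 0.482 and 0.779 CPM in mock, and its log2 fold changes were 6.22 in oscoi1ab and 1.03 in oscoi2 (difference 5.19 ± 0.71, SE). OsMYC2 had 2.48 in oscoi1ab and 1.27 in oscoi2 (difference 1.21 ± 0.18, SE). OsPsbR3 had -5.38 in oscoi1ab and -1.02 in oscoi2 (difference -4.36 ± 0.69, SE). Each of these differences passed the test. OsCAD8D, by contrast, rose in both lines, with 2.56 in oscoi1ab and 3.39 in oscoi2, and its difference was not called.

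**Figure D5:**
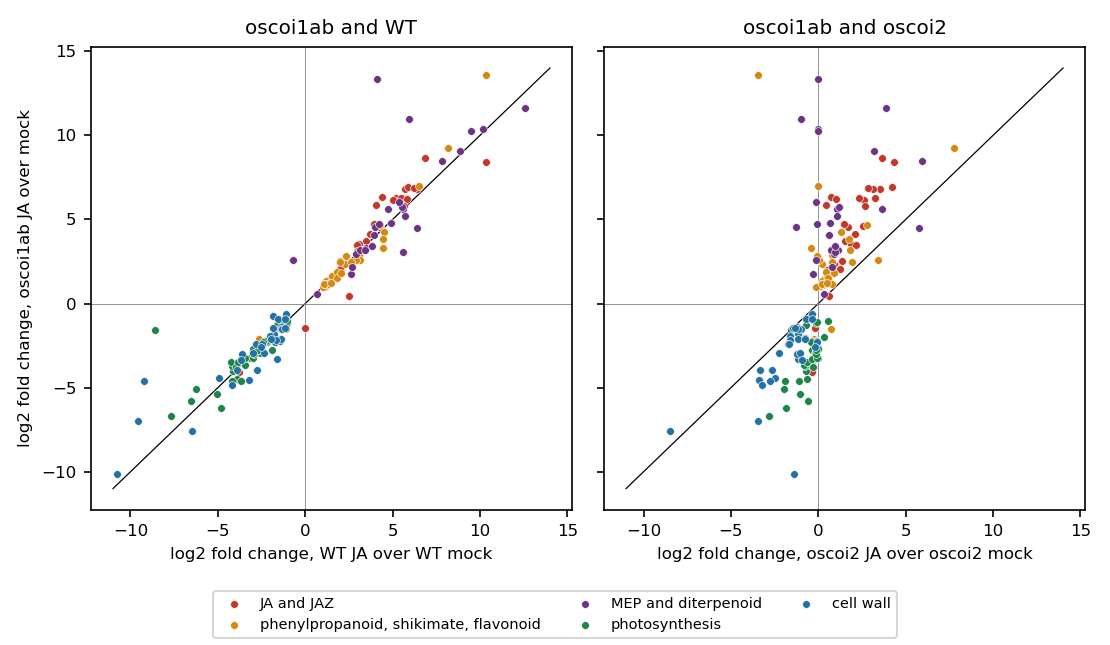
Log2 fold change, JA over mock, of listed genes in oscoi1ab (vertical axis) against WT (left panel, horizontal axis) and oscoi2 (right panel, horizontal axis), 1 point per gene coloured by pathway, with a line of equal values. Points lie near the line in the WT panel and mostly farther from 0 on the oscoi1ab axis in the oscoi2 panel.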

How the data were processed

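Reads of 150 bp were trimmed with cutadapt, mapped with HISAT2 and assembled with StringTie by the authors, who deposited whole-number estimated counts per gene, with MSU7 and RAP-DB identifiers merged and without normalization. Low counts clustered weakly near multiples of 3.65, so 3 read pairs were taken as 10.95 counts. Of 64687 genes, 30907 with a count sum of at least 180 over 18 libraries were tested. One edgeR 4.0.16 quasi-likelihood fit (R 4.3.3, TMM scaling) held all 6 groups, and contrasts gave each JA response and their differences. SE is the log2 fold change over the root of F. DESeq2 1.42.0, limma 3.58.1, other scalings, filters and limits, a replicate block and leaving out each library were alternatives. Named genes were the receptors, list members of largest change by rule, the 10 largest rises, falls, gains and losses, and leading differences between lines. Examples outside this rule (such as OsAH8, OsJAZ7, OsNPR1, Os4CL3, OsCPS4, OsPsbO, OsCRD1, OsPME5, OsCAD8D, SalT and RAB16D) were chosen after their values were seen. Members and lists were chosen with earlier results of these data known. Scripts were tested on simulated data. P-values and SE rest on the spread between 3 libraries within a group, pooled over all 6 groups, so WT and oscoi2 libraries enter them. Each library is a biological sample in the study. A fit of only the oscoi1ab libraries called 4627 genes for the JA response, 4312 of them the same way as the joint fit. Columns of other samples numbered 0.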

Additional observations from a re-analysis of the deposited data

Results flagged for a closer look

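A difference between lines under the same JA treatment brought each result here, by the test of the difference itself (edgeR). The JA response differed between oscoi1ab and oscoi2 for 1042 genes, 3.37% of those tested. Among the lists the members that differed were 6 of 9 for JA biosynthesis, 4 of 5 for JA-Ile catabolism, 10 of 14 for JAZ repressors and 7 of 23 for defense. They were 2 of 13 for expansins, 2 of 19 for wall remodelling and 7 of 29 for photosystems and chlorophyll. They were 5 of 8 for shikimate and phenylalanine, 7 of 16 for phenylpropanoid and lignin, 3 of 10 for flavonoid and 4 of 5 for the MEP pathway. They were 1 of 3 for diterpenoid regulators, 1 of 19 for diterpenoid phytoalexins, 9 of 44 for the transcription factors of the study and 2 of 4 for JA transcription factors. They were 1 of 9 for gibberellin, 1 of 13 for aquaporins, 1 of 12 for nitrogen, 1 of 9 for ethylene and 6 of 13 for iron acquisition. A single call in a list is not read as a result about that list. The study chose its own pathway and transcription factor lists on these samples, oscoi2 libraries included. Of its 44 transcription factors, 44 were not called in oscoi2. Counts from the study's lists are therefore no independent evidence of a difference from oscoi2.

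Among called genes of at least 1 CPM on average over the libraries compared, the largest positive differences in fitted log2 fold change, oscoi1ab minus oscoi2, were 16.999 for OsLAC10, 11.93 for OsKSL4, 11.55 for LOC_Os10g23900, annotated as similar to tryptophan decarboxylase, 11.12 for LOC_Os11g10800 and 9.84 for Os05g0501500. The largest negative ones were -9.24 for LOC_Os04g54900 (ILI1, a bHLH gene), -6.67 for LOC_Os03g22590, -6.67 for Os12g0291733, -6.19 for LOC_Os10g39150 and -5.94 for LOC_Os06g34180. Groups at or near 0 CPM enter most of these fits, so their size depends on the prior count and is no bound. Limma-voom did not call 8 of these 10 differences, and the test beyond 2-fold did not call 6. The call of LOC_Os04g54900 was lost in each of the 12 fits without 1 library (adjusted p from 0.0107 to 0.0194, edgeR), that of Os12g0291733 in 11 (0.0135 to 0.0284), that of Os05g0501500 in 10 (0.0119 to 0.0206) and that of OsLAC10 in 7. Without oscoi2 mock replicate 3 OsLAC10 had a difference of 13.55 (adjusted p = 1.0), and without oscoi2 mock replicate 1 LOC_Os11g10800 had 5.37 (adjusted p = 1.0). OsLAC10, for example, averaged 14.1 CPM in oscoi1ab JA and was listed at 0 in oscoi1ab mock and oscoi2 JA.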

How the results depend on the processing

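For the JA response of oscoi1ab, DESeq2 called 5672 genes (2537 up, 3135 down), limma-voom 4705 (2375 up, 2330 down), the fit with no fold minimum 8146 (4210 up, 3936 down) and a test for changes beyond 2-fold 2008 (1202 up, 806 down), so that rises outnumbered falls under the last 3 and not in the reported counts. By the test beyond 2-fold 19 photosystem, 4 light-harvesting and 4 wall remodelling genes fell. Leaving out 1 library gave 4127 to 4763 calls. With scaling by library size only, 26.5% of calls were rises, against 47.9%. For the difference from WT, DESeq2 called 21 genes, the likelihood ratio test 10 and the fit of only the libraries compared 1, and leaving out 1 library gave 0 to 1, with 1 without WT JA replicate 2, oscoi1ab mock replicate 2 or oscoi1ab mock replicate 3. For the difference from oscoi2, DESeq2 called 1718, the likelihood ratio test 1656, an FDR limit of 0.05 1835 and the test beyond 2-fold 88, leaving out 1 library gave 743 to 1070, and with library size only 31.2% of calls were positive, against 54.8%. Same-numbered JA and mock libraries of oscoi1ab had deviations correlated at 0.0552, 0.25 and 0.157 over 17616 genes, and JA replicate 1 correlated best with mock replicate 3 (0.0608), so pairing was not taken as shown for this comparison. Some other same-numbered sets correlated more (0.337, 0.376 and 0.287 between WT JA and WT mock, and 0.47, 0.315 and 0.239 between oscoi1ab mock and WT mock). Between oscoi1ab JA and WT JA the values were 0.0846, 0.317 and 0.294. Same-numbered libraries of oscoi1ab and oscoi2 gave 0.225, -0.196 and -0.0284 for JA, and 0.4, 0.0116 and 0.102 for mock. There oscoi1ab JA replicate 2 correlated best with oscoi2 JA replicate 3 (0.281). Whether the numbers mark a batch was not tested. With the replicate block, 4976 genes were called for oscoi1ab, 0 for the difference from WT and 1281 for that from oscoi2. Signs turned for OsHsfA7 (-0.0295 with library size only), OsCOI1a (LOC_Os01g63420) at 0.0187 without JA replicate 2 and 0.0037 without mock replicate 1 (lowest -0.7906 when 1 library was left out), OsCOI2 (-0.25 with library size only), OsJAZ4 (LOC_Os09g23660) at -0.194 without JA replicate 1 (highest 0.996) and RAB16D (LOC_Os11g26750) at -0.24 with library size only, -0.21 by limma-voom, -1.16 without JA replicate 2 and -0.226 without mock replicate 1 (highest 0.512), none of them called. Of 252 named genes called, 208 kept the call when single libraries were left out and 44 did not. The causes were not tested. Levels below about 0.1 CPM are limited by depth.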

Other observations

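SalT (LOC_Os01g24710), the salt-inducible lectin gene, was the abscisic acid list's 1 rise, with 2527, 2945 and 2174 CPM after JA, against 6.904, 38.8 and 34 CPM in mock (log2 fold change 6.58 ± 0.56 (SE), adjusted p = 1.62e-07), and its JA libraries stood above its mock libraries. The 4 RAB16 genes of that list, dehydrin genes, were not called, and JA replicate 2 was the highest JA library for each. RAB16D (LOC_Os11g26750) had 2.18, 13.2 and 2.87 CPM after JA, against 2.67, 6.28 and 7.95 CPM in mock.

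The genes called were spread over all 12 chromosomes. The share of tested genes that rose lay between 6.47% on chromosome 2 and 9.65% on chromosome 4, and the share that fell between 6.93% on chromosome 12 and 9.92% on chromosome 10.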
